A study of Rattus norvegicus with 15 samples.

Results

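Among the 22250 genes of the deposited rat lung expression table, 70 were members of the matrix metalloproteinase, TIMP, ADAM and ADAMTS families. They were taken by symbol alone, as every line whose name begins with Mmp, Timp, Adam or Adamts followed by a digit, which gave 22 Mmp, 4 Timp, 25 Adam and 19 Adamts genes. Of these, 37 reached 1 FPKM in at least 5 of the 15 libraries and were tested: 12 Mmp, all 4 Timp, 8 Adam and 13 Adamts genes. FPKM is the number of fragments on a gene, scaled for the gene's length and for the mapped fragments of its library.

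All libraries came from lung RNA of rats labelled wild type (WT), with 5 libraries per group. Control rats were normal, with no treatment named. The ALI group (acute lung injury) received lipopolysaccharide (LPS), the endotoxin of gram-negative bacteria, into the trachea. The SJY group received LPS into the trachea and, into the stomach, Sang Ju Yin, a Chinese herbal medicine. The labels give no strain, age, dose or time after LPS. The labels name no vehicle group, so the effect of LPS and that of its instillation cannot be told apart. The same holds for Sang Ju Yin and its dosing into the stomach. Whether animals were pooled within a library is not stated, and p-values measure the spread between these libraries.

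Matrix metalloproteinases (MMPs) are zinc enzymes that cut collagens, elastin and basement membrane. They are made as inactive zymogens and are held in check by the tissue inhibitors of metalloproteinases (TIMPs), which plug the active site. ADAM proteins sit in the cell membrane and shed the outer parts of cytokines, growth factors, receptors and adhesion molecules, while ADAMTS enzymes are secreted and cut proteoglycans such as versican and aggrecan or trim procollagens. In the lung, neutrophils carry ready-made MMP8 and MMP9 in their granules, and epithelium, endothelium, fibroblasts and macrophages make other members.

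Library ALI 1 stood apart from the other libraries. Transcripts of the 13 mitochondrial genes took 37.7% of its summed FPKM, against 5.19% to 17.1% in the other 14 libraries, of which SJY 1 was the highest. This share was 5.19% to 9.62% in control and 10.4% to 17.1% in SJY, so every SJY library was above every control library. The factors of a median-of-ratios scaling were 0.714 in ALI 1 and 0.835 in SJY 1, against 1.01 to 1.10 in the others. FPKM values given here are not scaled by them. For the results that ALI 1 and SJY 1 moved most, values without them are also given. The lung label was checked against 8 type II alveolar cell markers, which include the surfactant genes. Their FPKM summed to 16531 to 25266 in control, 6106 to 21098 in ALI and 17784 to 20283 in SJY, with ALI 1 at the lower end of ALI.

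Mmp8 lies in a row of MMP genes. In the RefSeq gene table of the rat build GRCr8 the order is Mmp13, Mmp12, Mmp1b, Mmp3, Mmp1, Mmp10, Mmp8, Mmp27, Mmp20 and Mmp7, and the members of this row differed widely in level. Mmp8 reached 292 FPKM and Mmp12 reached 9.60 FPKM. Mmp7 reached 1.67 FPKM, and the other 7 stayed at or under 0.417 FPKM in every library. Promoter windows, from 250 bases before to 50 bases after the start site, were read from RefSeq (GRCr8), which held 46 of the 70 members. They were searched for the AP-1 motif TGANTCA, the binding letters of Fos and Jun proteins, and for the NF-kB motif, on both strands. An AP-1 match stood in 7 of the 10 windows of this row, and in 9 of the 46 members in all. Over all 33469 windows the share was 7.33%. The matches in the row began 61 to 96 bases before the start site, with an additional one 242 bases before the start of Mmp1. No window of the row held the NF-kB motif, which was present in 4.18% of all windows. The window of Mmp8, the gene of the row with the highest level after LPS, held neither motif, as did those of Mmp1b and Mmp27. The windows of Mmp8 and of 3 neighbours are shown to compare them, with the AP-1 match in capitals.
Mmp8 (chr8:13008640-13008939, plus strand): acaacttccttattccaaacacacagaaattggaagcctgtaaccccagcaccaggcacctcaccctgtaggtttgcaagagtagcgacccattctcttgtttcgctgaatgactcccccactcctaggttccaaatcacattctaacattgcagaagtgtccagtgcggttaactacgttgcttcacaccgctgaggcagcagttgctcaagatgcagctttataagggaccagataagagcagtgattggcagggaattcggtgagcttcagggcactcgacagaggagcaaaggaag
Mmp12 (chr8:12866402-12866701, plus strand): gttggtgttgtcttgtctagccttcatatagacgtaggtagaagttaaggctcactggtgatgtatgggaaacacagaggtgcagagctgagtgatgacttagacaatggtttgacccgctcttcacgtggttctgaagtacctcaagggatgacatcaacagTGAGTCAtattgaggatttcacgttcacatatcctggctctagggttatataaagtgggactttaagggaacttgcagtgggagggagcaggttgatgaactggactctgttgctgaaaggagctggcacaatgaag
Mmp3 (chr8:12925031-12925330, plus strand): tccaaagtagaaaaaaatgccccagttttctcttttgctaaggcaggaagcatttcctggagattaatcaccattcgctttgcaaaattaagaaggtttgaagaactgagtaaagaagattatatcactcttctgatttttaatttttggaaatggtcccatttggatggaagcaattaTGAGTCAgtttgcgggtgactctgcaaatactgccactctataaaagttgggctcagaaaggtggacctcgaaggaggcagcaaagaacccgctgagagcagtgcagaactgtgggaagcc
Mmp13 (chr8:12782579-12782878, plus strand): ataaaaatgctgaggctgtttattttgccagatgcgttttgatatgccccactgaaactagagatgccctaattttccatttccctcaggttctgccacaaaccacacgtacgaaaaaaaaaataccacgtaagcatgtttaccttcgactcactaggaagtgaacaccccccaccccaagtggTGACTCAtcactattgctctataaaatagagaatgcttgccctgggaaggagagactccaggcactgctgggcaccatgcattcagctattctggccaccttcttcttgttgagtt

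The windows of Timp1 and Timp3 are shown because these inhibitors moved in opposite directions after LPS. Neither held an AP-1 or an NF-kB match, so no letters are in capitals. The Timp1 window had 12 CpG dinucleotides and the Timp3 window 26, against a median of 7 over all windows. A match or its absence describes these letters only.
Timp1 (chrX:3771073-3771372, minus strand): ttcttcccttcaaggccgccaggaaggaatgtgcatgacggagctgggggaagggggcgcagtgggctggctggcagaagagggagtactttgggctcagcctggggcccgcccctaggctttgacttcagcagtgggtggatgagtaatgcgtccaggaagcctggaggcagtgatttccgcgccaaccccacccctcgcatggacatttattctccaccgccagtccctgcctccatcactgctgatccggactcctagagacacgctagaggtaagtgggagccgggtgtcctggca
Timp3 (chr7:19459509-19459808, minus strand): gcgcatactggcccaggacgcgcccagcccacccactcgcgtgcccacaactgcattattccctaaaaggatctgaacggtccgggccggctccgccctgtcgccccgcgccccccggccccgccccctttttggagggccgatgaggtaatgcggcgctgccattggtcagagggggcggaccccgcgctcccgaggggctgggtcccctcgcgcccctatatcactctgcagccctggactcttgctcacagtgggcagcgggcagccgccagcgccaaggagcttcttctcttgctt

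ALI was set against control to see how these genes stand after LPS. The neutrophil collagenase gene Mmp8, the gelatinase gene Mmp9 and the inhibitor gene Timp1 had the largest rises, followed by the proteoglycanase gene Adamts4 and the membrane-type metalloproteinase gene Mmp14. Smaller rises were measured for Adamts9, Adam15 and Adam17. The inhibitor gene Timp3 and the membrane-type gene Mmp15 fell. With limma (Benjamini-Hochberg adjusted p under 0.05 over all genes tested), 10 of the 37 tested members were called, 8 higher and 2 lower. Over all 13457 genes tested 17.6% were called, 8.02% higher and 9.56% lower. Without adjustment, p was under 0.05 for 18 members and 35% of all genes. The groups did not overlap for 8 members that were higher in ALI (6.17% of all genes) and for 2 that were lower (6.73%), against 12.9% of all genes in either direction. The median log2 difference was 0.12 over the members and −0.12 over all genes, and 0.22 and 0.000102 after median-of-ratios scaling. Some members could pass the filter only through the LPS-treated libraries: Adamts3, Adamts4 and Mmp7 reached 1 FPKM in no control library, and Adamts6, Mmp9, Mmp17 and Timp4 in fewer than 5 of them. These counts are therefore a description.

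**Figure D1:**
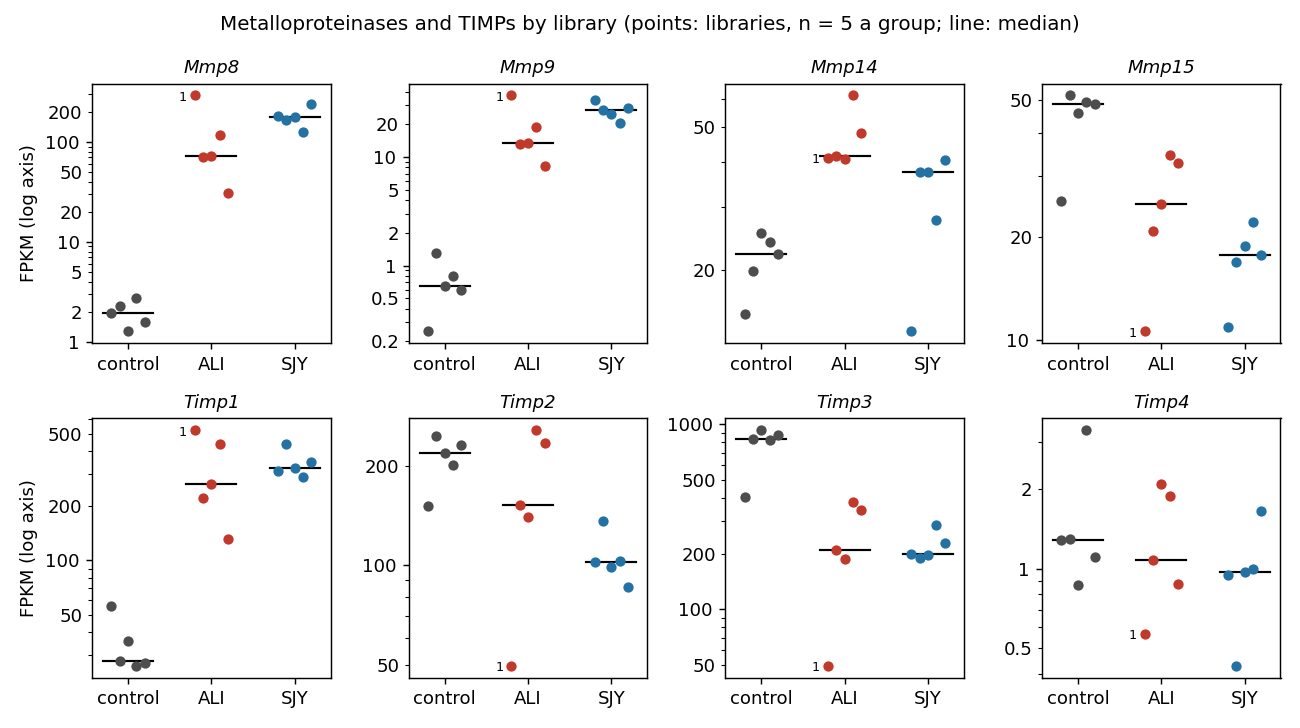
FPKM (log axis) of 4 MMP genes and the 4 TIMP genes in each library, with control, ALI and SJY on the horizontal axis, points for libraries (n = 5 a group), a line for the group median and ALI 1 marked 1. Mmp8, Mmp9 and Timp1 lay above all control libraries in all 10 LPS-treated libraries, and Timp3 lay below all of them.

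Mmp8 encodes neutrophil collagenase, which cuts fibrillar collagen. Its FPKM was 1.96, 2.26, 1.28, 2.78 and 1.58 in control, 292, 71.2, 72.8, 117 and 30.97 in ALI and 180.2, 165, 176, 125 and 239 in SJY. Every LPS-treated library was above every control library, and ALI 1 was the highest of all. The SJY libraries lay within the range of ALI only through ALI 1, and all of them were above the other ALI libraries. The log2 difference of ALI from control was 4.94 ± 0.40 (SE, n = 5 each; limma adjusted p = 2.53e-06), and it was 4.52 without ALI 1. All log2 differences are on the log2(FPKM + 1) scale, which understates the change of low genes.

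Mmp9 encodes gelatinase B, which cuts denatured collagen and type IV collagen of basement membrane. It stood at 0.249, 1.30, 0.653, 0.801 and 0.597 FPKM in control, 36.9, 13.2, 13.6, 18.99 and 8.32 in ALI and 33.3, 26.9, 24.7, 20.5 and 28.05 in SJY. The control libraries did not overlap with the others, and ALI 1 was again the highest. As with Mmp8, every SJY library was above the ALI libraries other than ALI 1. The log2 difference of ALI from control was 3.34 ± 0.29 (SE, n = 5 each; limma adjusted p = 3.25e-06). In FPKM, Mmp8 was 3.72 to 7.91 times as abundant as Mmp9 across the ALI libraries and 5.41 to 8.53 times across the SJY libraries. In control it was 1.74 to 7.875 times as abundant, which overlaps with both.

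Markers of neutrophils moved with Mmp8 and Mmp9. The summed FPKM of 18 neutrophil markers was 259 to 361 in control, 2378 to 23206 in ALI and 8461 to 14919 in SJY, and ALI 1 held the highest sum of all. Of the 14 markers tested, limma called 12 higher and 0 lower in ALI than in control, while Ltf stayed under 0.1 FPKM in every library. Markers of other myeloid cells were also called: 7 higher and 0 lower of 11 for monocytes and recruited macrophages. For alveolar macrophages it was 4 higher and 1 lower of 8. Over all genes 8.02% were called higher. The summed monocyte and recruited macrophage markers overlapped, at 12644 to 18499 FPKM in control and 4989 to 18444 in ALI. The part of neutrophil content in the rise of Mmp8 and Mmp9 was not tested. In RNA from whole lung, fewer or more cells of a type and less or more RNA per cell cannot be told apart.

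The membrane-type genes went both ways. Mmp14, whose product sits on the cell surface and activates the zymogen of MMP2, stood at 15.04, 19.8, 25.3, 23.9 and 22.1 FPKM in control and 41.03, 41.6, 40.9, 61.4 and 48.2 in ALI. All ALI libraries were above all control libraries, and ALI 1 lay among the others (log2 difference 1.10 ± 0.24 SE, n = 5 each; limma adjusted p = 0.00695). Mmp15, a related membrane-type enzyme, stood at 25.5, 51.7, 45.8, 49.6 and 48.6 FPKM in control and 10.6, 20.8, 24.96, 34.6 and 32.7 in ALI. Control 4 was low within control and lay below ALI 4 and ALI 5, so the groups overlapped. ALI 1 was the lowest library of all. Its log2 difference was −0.88 ± 0.28 (SE, n = 5 each; limma adjusted p = 0.0421), but −0.61 without ALI 1, where the call was lost (limma adjusted p = 0.0687). It was kept under 9 of 19 alternative settings.

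The other 8 tested MMP genes were not called in ALI against control. Mmp2, the mesenchymal gelatinase A, had 43.1 ± 8.14 FPKM in control and 61.8 ± 23.6 in ALI (SD, n = 5 each), with ALI 1 at 22.03 FPKM. Without ALI 1 its log2 difference was 0.73 (limma adjusted p = 0.00117), and Mmp19 and Mmp23 were also called higher without this library (0.62 and 0.63; limma adjusted p = 0.0431 and 0.0245). Mmp19 had 9.02 to 10.7 FPKM in control and 10.7 to 21.6 in ALI, with no overlap (log2 difference 0.52; limma adjusted p = 0.0814). Mmp12, the macrophage elastase, spread widely in both groups, over 2.11 to 6.40 FPKM in control and 1.66 to 9.60 in ALI. Its log2 difference was 0.38 ± 0.39 (SE, n = 5 each). The epithelial matrilysin gene Mmp7 had 0.352 to 0.814 FPKM in control and 0.669 to 1.67 in ALI. The membrane-anchored Mmp16, Mmp17 and Mmp24 stayed at or under 4.86 FPKM in all control and ALI libraries, with log2 differences of −0.32, −0.15 and −0.01.

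Among the inhibitors, Timp1 rose while Timp3 fell. Timp1 encodes a secreted inhibitor of many MMPs that also binds the MMP9 zymogen. It stood at 55.7, 27.8, 35.7, 26.1 and 26.98 FPKM in control, 524, 219.7, 262, 437 and 132 in ALI and 310.2, 439, 325, 288 and 348 in SJY. The lowest LPS-treated library, ALI 5, was still above the highest control library (ALI minus control 3.05 ± 0.31 log2 units SE, n = 5 each; limma adjusted p = 1.5e-05). Timp1 lies inside the gene Syn1 in the RefSeq table, and no strand setting is named, so their reads may be mixed. Syn1 was at or under 1.87 FPKM in every library.

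Timp3 binds to the matrix and, unlike the others, also inhibits ADAM17 and the ADAMTS proteoglycanases. In control it was the most abundant member of all, at 403, 836, 929.9, 826 and 877 FPKM. It stood at 49.4, 209.7, 186, 380.4 and 343 FPKM in ALI and 199, 188, 196, 286 and 227 in SJY. Every LPS-treated library was below every control library, with the least gap between control 4 and ALI 4, and ALI 1 was the lowest of all. The log2 difference of ALI from control was −1.96 ± 0.42 (SE, n = 5 each; limma adjusted p = 0.0055), and −1.47 without ALI 1 (limma adjusted p = 0.000969). Syn3, which contains Timp3 in the RefSeq table, was at or under 0.766 FPKM.

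Timp2, which inhibits MMPs and also takes part with MMP14 in activating the MMP2 zymogen, stood at 151, 246, 218, 201 and 231 FPKM in control, 49.5, 152, 139.8, 256 and 234 in ALI and 102, 136, 98.5, 103 and 86.2 in SJY. ALI overlapped with control (log2 difference −0.51, 95% interval −1.21 to 0.18; limma adjusted p = 0.273), and ALI 1 was the lowest library of all. Without ALI 1 the difference was −0.13. Timp4 was low throughout, at 1.29, 1.30, 0.871, 3.34 and 1.11 FPKM in control, 0.568, 1.08, 2.09, 1.89 and 0.875 in ALI and 0.95, 0.43, 0.974, 0.996 and 1.66 in SJY. Its groups overlapped and no comparison called it.

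The makeup of the inhibitor family stood apart between control and the LPS-treated groups. Timp3 held 65.9% to 78.5% of the summed TIMP FPKM in the control libraries, 7.92% to 48.4% in ALI and 24.6% to 42.3% in SJY. Timp1 held 2.37% to 9.10% in control, 18.6% to 84.0% in ALI and 42.4% to 57.5% in SJY. For control, ALI and SJY the summed TIMP FPKM was 1020 ± 233, 716 ± 207 and 667 ± 60.6 (SD, n = 5 each), and its ranges overlapped between all groups. The summed MMP FPKM was 137 ± 18.2, 302 ± 82.3 and 334 ± 44.5 in the same order. In control Mmp15 and Mmp2 held the largest shares of that sum, with means of 32.1% and 31.7%. In ALI Mmp8 had the largest mean share, 34.7%, with a range from 12.95% to 69.2%, and in SJY it held 44.0% to 59.2%. The ratio of Mmp9 to Timp1 FPKM was 0.00447 to 0.0468 in control, 0.0434 to 0.0705 in ALI and 0.0612 to 0.107 in SJY. These sums, shares and ratios are descriptions without a test, and they concern transcripts, not enzyme activity.

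**Figure D2:**
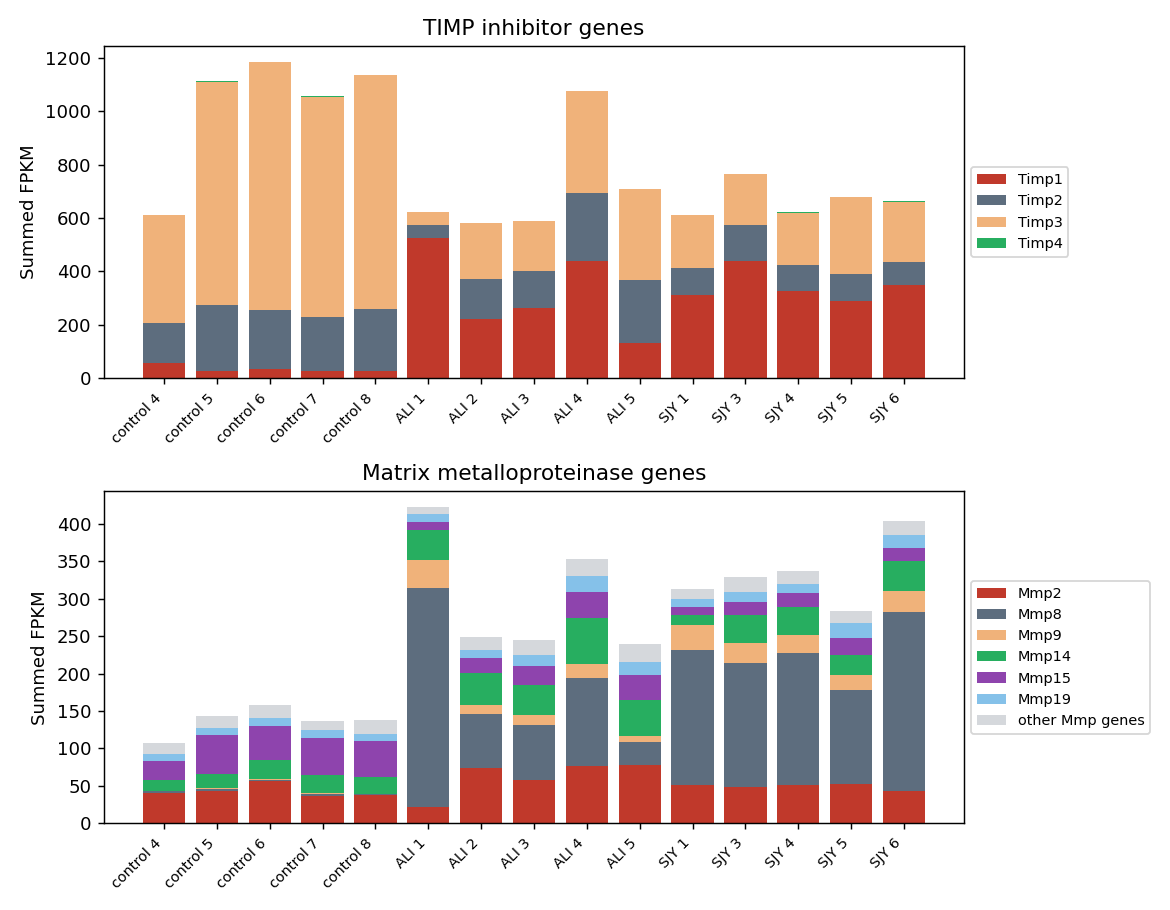
Summed FPKM of the TIMP genes (upper panel) and of the MMP genes (lower panel) in each library, as stacked bars with 1 colour per gene. Timp3 fills most of each control bar and Timp1 a larger part of the LPS-treated ones, while Mmp8 is nearly absent from control bars and is the largest part in ALI 1, ALI 3, ALI 4 and every SJY library.

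Markers of alveolar type I cells were lower in ALI, as were Timp3 and Mmp15. Some other cell markers had lower sums too, and others did not. All 8 such markers were called lower in ALI than in control, and their summed FPKM was 3034 to 4241 in control and 673 to 2175 in ALI, with ALI 1 the lowest. In SJY 6 of the type I markers were called lower, with a sum of 1592 to 2557. Airway and ciliated markers summed to 11322 to 17541 in control, 5616 to 9002 in ALI and 8196 to 13912 in SJY. Mast cell markers summed to 45.4 to 57.6, 6.37 to 43.7 and 25.7 to 43.2 in the same order. In ALI limma called 0 of the 4 tested. The sum of endothelial markers was 508 to 658 in control, 204 in ALI 1 and 365 to 722 in the other ALI libraries. Of these markers, 1 of 7 tested was called higher and 1 lower. Fibroblast markers summed to 426 to 560 in control and 485 to 946 in ALI, where 3 of 8 tested were called higher and 0 lower. Smooth muscle and pericyte markers summed to 476 to 850 and 197 to 738, with 0 of 8 called. Over all genes 8.02% were called higher and 9.56% lower. The part of cell content in the falls was not tested.

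Among ADAMTS genes 2 of 13 tested were called in ALI, both higher, beside 17.6% of all genes called (8.02% higher). The count is therefore no result about ADAMTS genes as a family. Adamts4, an enzyme that cuts aggrecan and versican, stood at 0.0556, 0.0699, 0.161, 0.014 and 0.0726 FPKM in control, 10.7, 2.69, 2.73, 1.79 and 0.557 in ALI and 0.751, 3.06, 1.56, 1.02 and 4.49 in SJY. It was close to 0 in every control library and above them in every LPS-treated one, and ALI 1 was far above the rest. The log2 difference of ALI from control was 1.79 ± 0.42 (SE, n = 5 each; limma adjusted p = 0.00927), and 1.37 without ALI 1 (limma adjusted p = 0.00756). Adamts9, another versican-cutting enzyme, stood at 5.23, 4.61, 5.57, 4.37 and 5.21 FPKM in control and 12.3, 9.51, 6.87, 9.63 and 6.43 in ALI. The groups did not overlap, but the call was narrow (log2 difference 0.70 ± 0.23 SE, n = 5 each; limma adjusted p = 0.0491, and 0.0935 without ALI 1). It was kept under 8 of 19 alternatives.

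The other ADAMTS genes were not called in ALI. Adamts10, an enzyme tied to fibrillin, was the most abundant of them in control. It had 54.2 to 92.6 FPKM in control and 6.21 to 71.04 in ALI, where ALI 1 was the lowest (log2 difference −0.98; limma adjusted p = 0.134). Without ALI 1 the difference was −0.40 (limma adjusted p = 0.162). Adamts1, an inducible versicanase, had 52.6 ± 11.9 FPKM in control and 66.4 ± 14.3 in ALI (SD, n = 5 each), and the proteoglycanase gene Adamts15 had 17.1 ± 3.01 and 26.8 ± 8.76 FPKM. Adamts8, chosen after its values were seen because its groups did not overlap, had 20.4 to 28.2 FPKM in control and 3.07 to 19.9 in ALI (log2 difference −0.92; limma adjusted p = 0.0672). Without ALI 1 it was called lower, at −0.50 log2 units (limma adjusted p = 0.0362). Adamts13, which cuts von Willebrand factor, did not pass the filter and reached at most 0.679 FPKM.

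Of the 8 ADAM genes tested, 2 were called in ALI, both higher and both by less than 1 log2 unit. Over all genes 17.6% were called, 8.02% higher, and this count too is a description. Adam17 encodes the sheddase that releases tumour necrosis factor and ligands of the epidermal growth factor receptor. It stood at 34.5, 34.2, 32.8, 35.8 and 34.7 FPKM in control, 39.6, 49.9, 43.01, 50.5 and 48.1 in ALI and 43.6, 48.8, 43.9, 46.3 and 46.5 in SJY. The control libraries lay close together and below all others (ALI minus control 0.41 ± 0.087 log2 units SE, n = 5 each; limma adjusted p = 0.00534). Adam15, a membrane ADAM that carries an integrin-binding stretch, stood at 29.6, 37.8, 34.5, 29.4 and 27.8 FPKM in control and 35.97, 48.1, 37.6, 68.5 and 45.6 in ALI. ALI 1 and ALI 3 lay within the range of control, and the call was narrow (log2 difference 0.52 ± 0.17 SE, n = 5 each; limma adjusted p = 0.046). It too was kept under 8 of 19.

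The other ADAM genes were not called in ALI. Adam8, which leukocytes express, had 57.5 ± 12.3 FPKM in control and 48.5 ± 12.8 in ALI (SD, n = 5 each). Its log2 difference was −0.25 with a 95% interval of −0.76 to 0.25, beside the higher neutrophil markers. Adam10, the main sheddase of Notch receptors and of E-cadherin, had 29.7 ± 6.56 and 26.3 ± 6.01 FPKM, and Adam9 had 51.3 ± 7.45 and 47.3 ± 6.77 FPKM. Adam33, a gene of mesenchymal cells named here after its values were seen, had 25.5 ± 8.40 and 11.3 ± 7.03 FPKM, with ALI 1 at 0.218 FPKM. Its log2 difference was −1.51 (limma adjusted p = 0.0808), and −0.79 without ALI 1 (limma adjusted p = 0.0724). Adam19 had 26.8 ± 3.52 FPKM in control and 23.7 ± 6.74 in ALI, with ALI 1 at 11.98 FPKM.

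**Figure D3:**
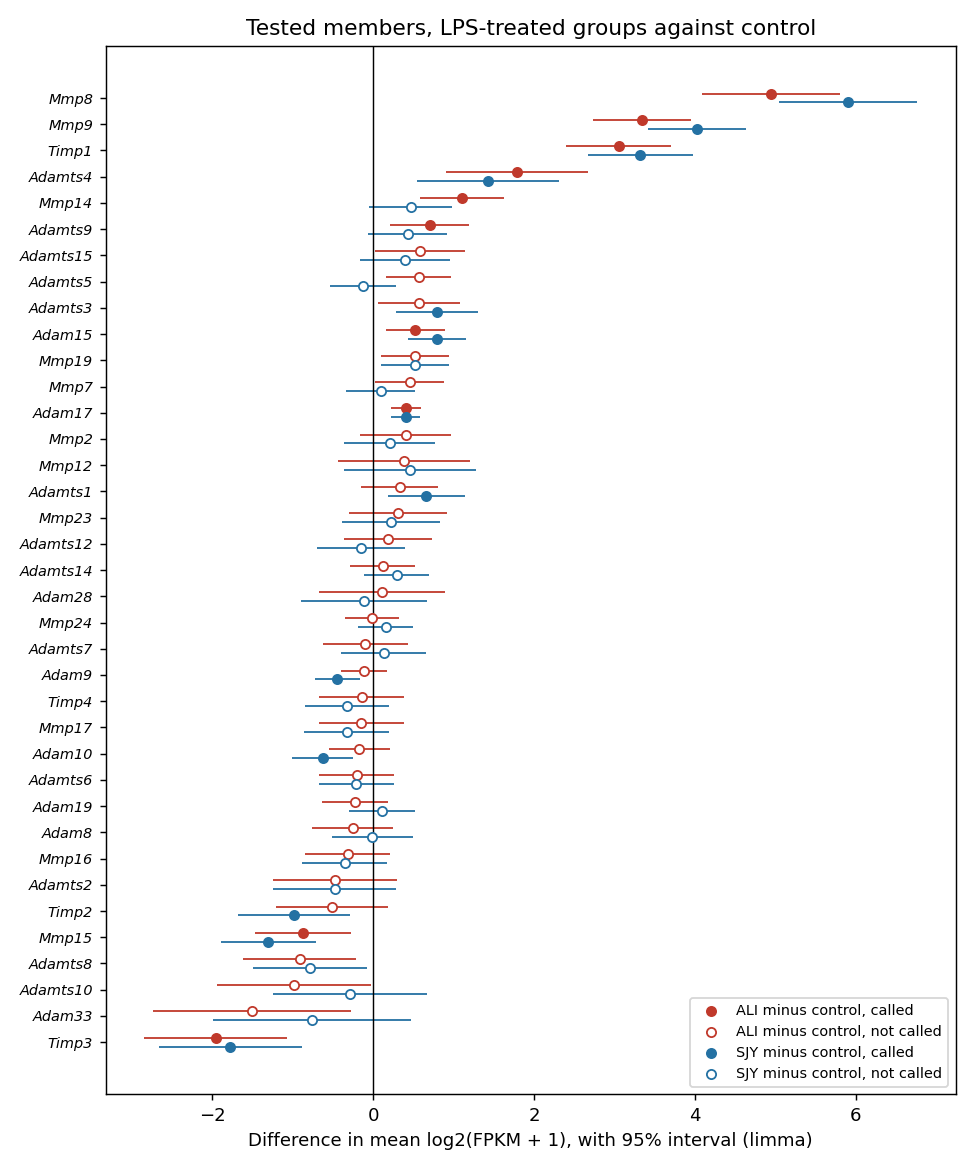
Difference in mean log2(FPKM + 1) from control for the 37 tested members, ordered by ALI minus control, with 95% intervals from limma. Filled points mark calls (10 in ALI, 13 in SJY), and Mmp8, Mmp9 and Timp1 lie farthest to the right in both groups while Timp3 lies farthest to the left in both.

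The comparison of SJY with control shares its control libraries with that of ALI, so agreement between them is no independent evidence. It gave 13 called members of 37, 8 higher and 5 lower. Over all genes 32.6% were called, 14.6% higher and 18.1% lower. Without adjustment, p was under 0.05 for 15 members and 43.6% of all genes. The groups did not overlap for 6 members higher in SJY (11.8% of all genes) and 5 lower (15.9%), against 27.7% in either direction. Called higher in both LPS-treated groups were Adam15, Adam17, Adamts4, Mmp8, Mmp9 and Timp1, and called lower in both were Mmp15 and Timp3. The largest differences of SJY from control were 5.90 ± 0.40 log2 units for Mmp8, 4.02 ± 0.29 for Mmp9 and 3.32 ± 0.31 for Timp1 (SE, n = 5 each; limma adjusted p = 2.04e-07, 2.99e-07 and 2.7e-06). Timp3 and Mmp15 fell, with log2 differences of −1.77 and −1.30 (limma adjusted p = 0.00533 and 0.00315). For Mmp15 the SJY libraries, at 10.9, 16.9, 18.7, 22.02 and 17.7 FPKM, were all below the control libraries.

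The rest of the calls of SJY against control were 5 genes that limma did not call in ALI. Adamts1 was higher in SJY, at 86.2 ± 28.2 FPKM against 52.6 ± 11.9 (SD, n = 5 each; log2 difference 0.66; limma adjusted p = 0.0348). The procollagen-trimming enzyme gene Adamts3 was also higher, at 0.147 to 2.26 FPKM against 0.196 to 0.639 in control, where SJY 1 lay below all control libraries (log2 difference 0.80; limma adjusted p = 0.0195). Timp2 was lower in every SJY library than in every control library (log2 difference −0.99; limma adjusted p = 0.031, and 0.0578 without SJY 1). Adam10 was lower, at 15.99 to 22 FPKM against 21.5 to 35.7 (log2 difference −0.63; limma adjusted p = 0.0145), and so was Adam9, at 29.3 to 43.2 FPKM against 41.9 to 62.5 (log2 difference −0.45; limma adjusted p = 0.0191, and 0.0512 without SJY 1). Without SJY 1, Mmp14, Mmp19, Adamts9 and Adamts15 were called higher in SJY than in control, with log2 differences of 0.73, 0.64, 0.63 and 0.65 (limma adjusted p = 0.00665, 0.0277, 0.032 and 0.0306). Whether these genes differ between SJY and ALI is a question for the direct comparison.

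SJY was set against ALI to see how the 2 LPS-treated groups differ, where the herbal formula and its dosing into the stomach go together. Over all 15 libraries limma called 0 of the 37 members, and over all genes 0.00743% were called. At an unadjusted p under 0.05 there were 6 members, against 11.8% of all genes: Mmp8 and Mmp9 with higher values in SJY, and Adam9, Adam10, Adamts5 and Mmp14 with lower ones. In 1 member, Mmp14, the groups did not overlap, with SJY lower. Over all genes this held for 3.23%, of which 2.24% were higher and 0.988% lower in SJY. Mmp14 stood at 13.4, 37.4, 37.6, 27.4 and 40.4 FPKM in SJY, where the highest library was just below the lowest of ALI and SJY 1 was the lowest of all. The log2 difference of SJY from ALI was −0.64 (95% interval −1.16 to −0.12; limma adjusted p = 0.343), and −0.37 without SJY 1 (limma adjusted p = 0.551).

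None of the genes with the largest differences from control passed the test between SJY and ALI. Timp1 differed by 0.27 log2 units (95% interval −0.39 to 0.92), Timp3 by 0.18 (−0.71 to 1.07) and Timp2 by −0.48 (−1.17 to 0.22). The sign for Timp3 turned without ALI 1, to −0.30, and it was −0.27 without ALI 1 and SJY 1. For Mmp8 the means were 117 ± 103 FPKM for ALI and 177 ± 41.1 for SJY (SD, n = 5 each), with a difference of 0.96 log2 units (0.10 to 1.81; limma adjusted p = 0.378). Mmp9 had 18.2 ± 11.1 and 26.7 ± 4.71 FPKM, with a difference of 0.68 (0.07 to 1.29; limma adjusted p = 0.378). Adam17 had the narrowest interval, −0.19 to 0.18 log2 units around −0.01. A difference that misses the threshold does not show that the groups are alike, and for Adam33 and Adamts10 the intervals reached 1.98 and 1.66 log2 units. For these genes the differences, 0.75 and 0.70, were 0.03 and 0.11 without ALI 1.

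The calls between SJY and ALI depended on single libraries. Without ALI 1, limma called 4 members: Mmp8 and Mmp9 were higher in SJY by 1.38 and 0.97 log2 units, and Timp2 and Adamts5 were lower (differences of −0.86 and −0.83; limma adjusted p from 0.0297 to 0.0408 for the 4). The share called over all genes in that fit is not reported here, so the count of 4 says nothing particular about these families. Adamts5, a proteoglycanase gene named here after its values were seen, had 1.85, 3, 4.36, 3.10 and 3.69 FPKM in ALI and 1.55, 0.804, 1.90, 1.69 and 1.96 in SJY, which overlap. In control Adamts5 had 1.81 ± 0.47 FPKM (SD, n = 5). ALI minus control was 0.57 log2 units (limma adjusted p = 0.0522), and 0.70 without ALI 1 (limma adjusted p = 0.0133). SJY minus control was −0.13 (limma adjusted p = 0.644). With ALI 1 and SJY 1 both left out, a choice made after seeing the data, limma called 0 members. The differences of Mmp8, Mmp9, Timp2 and Adamts5 were then 1.37, 0.88, −0.85 and −0.83, about as large as without ALI 1 alone (limma adjusted p = 0.0742, 0.0865, 0.0865 and 0.0742). Summed neutrophil markers in the 4 other ALI libraries were 2378 to 7453 FPKM, below the 8461 to 14919 FPKM of SJY, and their part in the higher Mmp8 and Mmp9 was not tested.

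**Figure D4:**
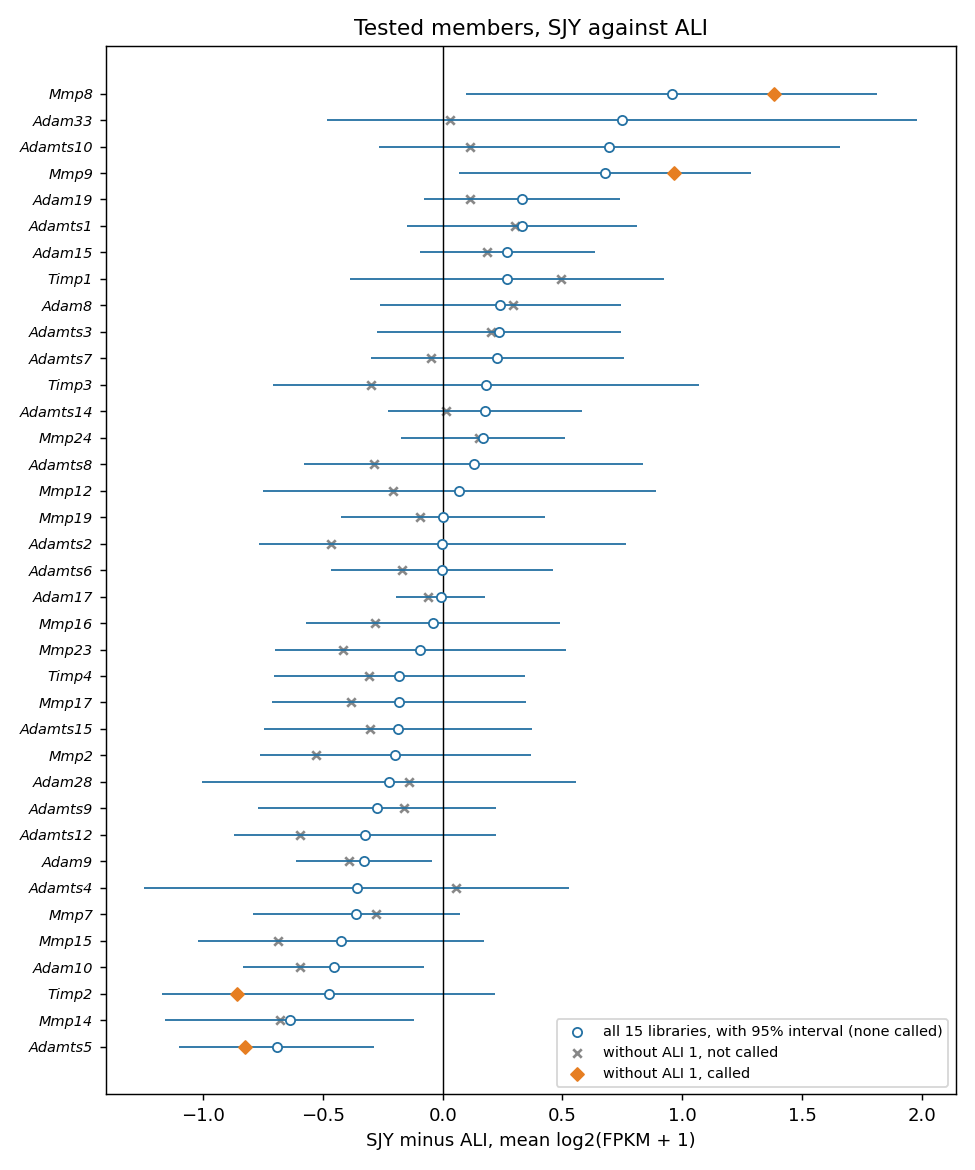
SJY minus ALI in mean log2(FPKM + 1) for the 37 tested members, as open circles with 95% intervals from limma over all 15 libraries, and as crosses or diamonds without ALI 1. No member is called with all libraries, and without ALI 1 the diamonds mark the 4 calls (Mmp8, Mmp9, Timp2 and Adamts5).

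Other genes of the pathway were counted from pathway lists, and those named here were picked after their values were seen. Among 18 tested inhibitors and regulators outside the TIMP family, 6 were called higher and 5 lower in ALI than in control. Reck, a membrane-anchored MMP inhibitor, fell from 26.3 ± 5.81 to 10.1 ± 5.30 FPKM (SD, n = 5 each; log2 difference −1.49; limma adjusted p = 0.0104), and it was 8.70 ± 1.64 FPKM in SJY. Rhbdf2, which carries ADAM17 to the cell surface in immune cells, rose from 18.2 ± 1.98 to 34.7 ± 5.72 FPKM (log2 difference 0.89), while its relative Rhbdf1 fell from 47.8 ± 12.1 to 31.6 ± 7.47 FPKM (−0.59; limma adjusted p = 0.0499). Lcn2, whose product binds MMP9, rose by 3.57 log2 units and Spock2, a matrix proteoglycan, fell, with a difference of −2.20.

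Among 12 tested zymogen activators and serine proteases 3 were called higher in ALI (Elane, Pcsk5 and Plaur) and 3 lower (Hpn, Prss8 and Tmprss2). Elane, the neutrophil elastase gene, rose from 0.165 ± 0.194 to 1.75 ± 1.05 FPKM (SD, n = 5 each). Among 15 other proteases of the matrix and lysosome, 5 were called higher, all of them cathepsins, and 1 lower, the procollagen C-proteinase gene Bmp1 (log2 difference −1.28). Ctsz rose from 109 ± 11.6 to 217 ± 21.1 FPKM.

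Of 27 tested membrane proteins that ADAM proteases shed, 4 were called higher and 9 lower in ALI. Among the higher ones were Cxcl16, Tnfrsf1a and Il1r2, the last a decoy receptor for interleukin 1. Among the lower ones were the epidermal growth factor receptor ligands Hbegf, Tgfa and Areg, with log2 differences of −0.76, −0.94 and −1.49. Of 21 tested matrix substrates, 5 were called higher and 0 lower, by limma at the adjusted threshold, and they were Col1a1, Col3a1, Col4a1, Dcn and Vcan. Vcan, the substrate of several ADAMTS enzymes, rose from 0.951 ± 0.39 to 13.98 ± 10.9 FPKM (log2 difference 2.67), and Dcn from 49.7 ± 7.06 to 185 ± 40.1. Of 19 transcription regulators of MMP genes, 2 were called higher (Cebpb and Nfkb1) and 5 lower (Etv4, Etv5, Fosb, Jun and Jund). Against the 8.02% higher and 9.56% lower over all genes, these counts are descriptions, and the lists overlap with the cell marker lists.

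The 33 members that did not pass the filter were at low levels in all groups. Of these, 9 were listed at 0 in every library: Adam21, Adam24, Adam34, Adam34l, Adamts16, Mmp1, Mmp1b, Mmp10 and Mmp28. Another 20 had values above 0 without reaching 1 FPKM in any library, among them the collagenase gene Mmp13 (at most 0.175 FPKM), the stromelysin gene Mmp3 (at most 0.0856 FPKM) and a group of ADAM genes known from testis (Adam2, Adam5, Adam18, Adam3a, Adam30 and Adam32). The other 4 (Adam11, Adam12, Adam23 and Adamts17) reached 1 FPKM in 1 to 4 libraries, with 2.45 FPKM of Adam11 in ALI 3 the highest value. The near copies Mmp1 and Mmp1b, and Adam34 and Adam34l, could share reads, and FPKM of 0 can be a failed estimate.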

How the data were processed

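Lung RNA was sequenced in 15 libraries, 5 in each of 3 groups taken from the labels. Per the labels' protocols, TRIzol was used for RNA and a NEBNext Ultra kit for libraries. Cutadapt, StringTie, HISAT2 and the rat build Rnor_6.0 appear in the submitters' processing notes, without versions, and a strand setting is not given in the sources used here. The authors deposited FPKM for 22250 genes, per the file headers, so read depth is unknown and no counting interval can be given.

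Members and lists were chosen with earlier results of these data known. FPKM was turned into log2(FPKM + 1). The filter kept 13457 genes with 1 FPKM or above in 5 or more libraries. The 3 groups were fitted jointly with limma 3.58.1 under R 4.3.3 (eBayes with trend and robust settings). Calls needed a Benjamini-Hochberg adjusted p under 0.05 over all tested genes, two-sided. The fit was tested on simulated data. Named with values were all Timp and tested Mmp genes, called members, and tested members with a mean of at least 20 FPKM. Values per library were given for the Timp genes and called members of ALI against control. Symbols of 69 of 70 members were in the RefSeq table, whose build GRCr8 differs, so it gave only names, gene order, overlaps and promoter windows. Protein sequences were not used here, and values of some genes outside these families are not reported here.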

Additional observations from a re-analysis of the deposited data

Results flagged for a closer look

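In each group of 5 libraries, a library was noted where its gap to the nearest other library was over 0.71 of the group's range. For normally distributed values chance gives this in about 1 in 20 groups. This was met 11 times in the 111 groups of 5 looked at. FPKM was used without the log, and the 111 groups share the same 15 libraries. The count of 11 can therefore not be set against that rate. Library ALI 1 gave 5 of them. It held the highest Adamts4 of its group, 10.7 FPKM against 0.557 to 2.73 in the other 4 libraries. It held the lowest Adamts2, a procollagen-trimming enzyme (1.30 against 9.71 to 11.1 FPKM), Adam19 (12.0 against 24.8 to 29.2), Mmp23 (0.918 against 4.31 to 5.44) and Adamts6 (0.276 against 1.15 to 1.36). Control 4 gave 3: Timp3 was lowest there at 403 FPKM (826 to 930 in the other 4 control libraries), as was Mmp15 at 25.5 FPKM (45.8 to 51.7), and Adamts15 was highest at 22.3 FPKM (14.9 to 16.9). Timp4 was highest in control 7, at 3.34 FPKM against 0.871 to 1.30. Adam28 was highest in SJY 4, at 5.71 FPKM against 1.15 to 2.41, and Adam19 was lowest in SJY 1, at 22.7 FPKM against 29.9 to 31.5.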

How the results depend on the processing

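Read depth is unknown, and the groups of 5 limit what small differences can pass. No called member changed direction under any of the 19 alternatives run for it, which do not include the 2-fold minimum given below. In ALI against control, 4 of 10 called members (Mmp8, Mmp9, Mmp14 and Timp1) kept their calls under all of them. In SJY against control 5 of 13 did (Mmp8, Mmp9, Timp1, Adam15 and Adam17), but Adam15 and Adam17 are under 2-fold and lose their calls with that minimum. For Adamts3 and Adamts4 the minimum mean of 5 FPKM gave no value.

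With all libraries 10 members were called in ALI against control (8 higher, 2 lower), 13 in SJY against control (8 and 5) and 0 in SJY against ALI. A minimum of 2-fold left 6 (5 higher, 1 lower) and 6 (4 higher, 2 lower), by construction. Fitting only the groups compared gave 1 lower call in ALI and 9 in SJY against control. Array weights, estimated per library, called 17 in ALI (14 higher), 21 in SJY (14 higher) and 5 in SJY against ALI (2 higher, 3 lower). Without ALI 1 and SJY 1 together, added after seeing the data, 18 were called in ALI (14 higher, 4 lower), 20 in SJY (13 higher) and 0 in SJY against ALI. The cause was not tested. Shares called over all genes are not reported for these alternatives or for those below. A shift in member counts therefore cannot be told from a shift over all genes.

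Leaving out each library in turn gave 7 to 13 calls in ALI (6 to 11 higher, 1 to 4 lower), 10 to 15 in SJY against control (6 to 12 higher, 3 to 5 lower) and 0 to 4 in SJY against ALI (0 to 2 higher, 0 to 2 lower). The 4 calls came without ALI 1. The lower calls in ALI went to 1 without control 5, 6, 7 or 8 or without ALI 2 or 3, and to 4 without ALI 5. In SJY they went to 3 without control 8 or SJY 1. Over all alternatives the calls of Adam15, Adamts9 and Mmp15 in ALI were kept under 8, 8 and 9 of 19, and those of Timp2, Adamts1 and Adam9 in SJY under 10, 11 and 16 of 19. The call of Adamts3 in SJY was lost without SJY 3.

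The replicate numbers are shared by only some libraries, and nothing in the labels says that they pair animals. Over the 9 same-numbered pairs the correlation of deviations ran from −0.39 to 0.30, and 3 of 12 libraries correlated best with their own number. With the replicate number as a block, 4 members were called in ALI (4 higher, 0 lower), 6 in SJY against control (6 higher, 0 lower) and 0 in SJY against ALI.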
